A study of Mus musculus and Mus musculus musculus x Mus musculus castaneus with 8 samples.

Results

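When the donor nuclei of mouse embryonic fibroblasts (MEFs) were transplanted into Xenopus oocytes that overexpressed Toca1, the ATAC-seq peak list held 5489 sites that were present in none of the 3 lists they were set against. A site was counted when it lay at least 5000 bp, edge to edge, from every peak of the donor MEFs and shared no base with a peak of MEFs after control nuclear transfer (NT) or with a peak of C2C12 myoblasts from 50000 cells. These 5489 sites made up 33.4% of the 16412 peaks of the Toca1 list, and 151729 peaks were listed over all 5 conditions. The choice rests on the peak calls themselves, so absence from the 3 lists is what the sites were picked for and is not a result.

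ATAC-seq uses a transposase that inserts sequencing adaptors into DNA that is not wrapped tightly, so that promoters, enhancers and other accessible regions give many fragments and are called as peaks. An amphibian oocyte does not replicate the DNA of a transplanted nucleus, but it decondenses the nucleus and transcribes genes that the donor cell kept silent. Toca1, encoded by Fnbp1l, is an F-BAR domain protein that acts with Cdc42 and N-WASP to start actin filaments through the Arp2/3 complex, and the oocyte nucleus is unusually rich in actin. The Toca1 arm asks what happens to open chromatin when nuclear actin polymerization is enhanced.

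The donor MEFs came from embryos of a musculus by castaneus cross and were permeabilized before transfer, in the donor sample as in the NT samples. MEFs were recovered 48 h after NT, either from control oocytes (2 libraries) or from oocytes overexpressing Toca1 (1 library), and the donor sample (1 library) was not transplanted. C2C12 myoblasts, a cultured line of strain C3h, were profiled from 50000 cells (2 libraries) and from 1000 cells (2 libraries, amplified without kit purification). The study used them to test its method over cell numbers, and here they served as a second somatic cell type. The lists held 39592 donor, 8257 control NT, 16412 Toca1, 52697 and 34771 C2C12 peaks (50000 and 1000 cells). Each condition had 1 list of positions without scores or read numbers, so there was no replicate check, the depth is unknown, and the effect of Toca1 cannot be told apart from the library or its depth. The 95% intervals given here are taken over peaks and reflect counting error alone.

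The annotation of mm9, the build of the lists, was not used here, and a transcription start site (TSS) could be placed in list coordinates for 963 genes that lie near new control NT peaks. A site opened only with Toca1 spanned the placed TSS of 30 genes or lay within 1 kb of it at 25 further genes. For the 6 widest spanning sites whose gene has a single RefSeq promoter entry, the promoter is printed below, from 250 bases before to 50 bases after the start, 5′ to 3′ on the coding strand, with every CG dinucleotide in capitals. CG is the target of DNA methylation, and promoters rich in CG belong mostly to CpG islands. The sequences are those of RefSeq in GRCm38.p6. They are promoters of the genes and not the sequence of the peaks, whose positions are in mm9.
Fstl4: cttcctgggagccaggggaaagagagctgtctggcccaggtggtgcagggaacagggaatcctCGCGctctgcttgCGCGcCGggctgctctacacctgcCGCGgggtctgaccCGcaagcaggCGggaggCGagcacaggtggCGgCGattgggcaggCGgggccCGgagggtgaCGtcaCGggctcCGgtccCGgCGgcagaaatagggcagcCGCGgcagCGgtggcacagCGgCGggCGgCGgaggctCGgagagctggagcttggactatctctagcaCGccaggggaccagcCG
Kcnma1: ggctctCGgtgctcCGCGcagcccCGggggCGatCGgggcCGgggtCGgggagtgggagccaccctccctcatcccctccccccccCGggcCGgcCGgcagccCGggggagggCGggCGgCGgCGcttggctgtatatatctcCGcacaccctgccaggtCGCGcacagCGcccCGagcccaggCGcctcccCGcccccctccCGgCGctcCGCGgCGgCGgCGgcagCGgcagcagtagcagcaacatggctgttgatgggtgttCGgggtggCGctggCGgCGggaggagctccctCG
Slc16a12: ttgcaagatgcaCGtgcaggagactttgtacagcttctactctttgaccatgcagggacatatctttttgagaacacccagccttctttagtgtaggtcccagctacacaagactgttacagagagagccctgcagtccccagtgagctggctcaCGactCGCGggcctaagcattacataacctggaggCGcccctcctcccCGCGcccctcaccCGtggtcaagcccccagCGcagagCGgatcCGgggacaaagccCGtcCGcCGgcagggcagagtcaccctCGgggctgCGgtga
Fam163b: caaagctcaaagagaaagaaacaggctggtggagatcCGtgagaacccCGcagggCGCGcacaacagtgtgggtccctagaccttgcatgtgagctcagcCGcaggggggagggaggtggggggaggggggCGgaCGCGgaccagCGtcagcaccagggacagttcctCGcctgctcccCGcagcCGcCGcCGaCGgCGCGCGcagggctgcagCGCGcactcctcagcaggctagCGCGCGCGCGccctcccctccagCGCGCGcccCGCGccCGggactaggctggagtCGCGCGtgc
Ada: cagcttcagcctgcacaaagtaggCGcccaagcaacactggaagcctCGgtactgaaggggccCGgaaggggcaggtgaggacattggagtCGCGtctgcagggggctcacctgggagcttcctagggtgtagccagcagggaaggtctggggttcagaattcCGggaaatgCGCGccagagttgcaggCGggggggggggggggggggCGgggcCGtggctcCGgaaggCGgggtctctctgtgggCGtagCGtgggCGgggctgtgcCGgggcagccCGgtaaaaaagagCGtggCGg
Ntrk2: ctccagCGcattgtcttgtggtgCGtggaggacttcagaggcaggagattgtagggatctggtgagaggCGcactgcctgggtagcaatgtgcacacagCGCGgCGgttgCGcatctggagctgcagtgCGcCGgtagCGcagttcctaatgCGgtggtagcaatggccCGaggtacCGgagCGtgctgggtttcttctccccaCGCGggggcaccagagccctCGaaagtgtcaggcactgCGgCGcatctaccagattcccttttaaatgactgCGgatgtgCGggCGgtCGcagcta

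These promoters lie in GRCm38.p6 at chr11:52764456-52764755 on the plus strand (Fstl4), chr14:24004156-24004455 on the minus strand (Kcnma1), chr19:34747279-34747578 on the minus strand (Slc16a12), chr2:27142428-27142727 on the minus strand (Fam163b), chr2:163750190-163750489 on the minus strand (Ada) and chr13:58806319-58806618 on the plus strand (Ntrk2). The 300 bases held 36 CG dinucleotides at Kcnma1, 34 at Fam163b, 29 at Fstl4, 23 at Ntrk2, 20 at Ada and 16 at Slc16a12. The median over all 32851 RefSeq promoters was 7, so each of the 6 lay above it.

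A further 3 promoters were chosen after their values were seen, because they show the range. Wnt3 (24 CG, chr11:103773925-103774224, plus strand) and Glp1r (29 CG, chr17:30901617-30901916, plus strand) were spanned by sites of middling width, and Srarp (0 CG, chr4:141436056-141436355, minus strand) was the promoter without a CG. The coordinates are again those of GRCm38.p6.
Wnt3: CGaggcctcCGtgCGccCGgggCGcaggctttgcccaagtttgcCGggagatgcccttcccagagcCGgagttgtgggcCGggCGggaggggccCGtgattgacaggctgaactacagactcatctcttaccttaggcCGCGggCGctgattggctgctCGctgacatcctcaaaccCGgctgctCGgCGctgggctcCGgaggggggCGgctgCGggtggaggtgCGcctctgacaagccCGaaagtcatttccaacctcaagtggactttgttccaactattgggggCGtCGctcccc
Glp1r: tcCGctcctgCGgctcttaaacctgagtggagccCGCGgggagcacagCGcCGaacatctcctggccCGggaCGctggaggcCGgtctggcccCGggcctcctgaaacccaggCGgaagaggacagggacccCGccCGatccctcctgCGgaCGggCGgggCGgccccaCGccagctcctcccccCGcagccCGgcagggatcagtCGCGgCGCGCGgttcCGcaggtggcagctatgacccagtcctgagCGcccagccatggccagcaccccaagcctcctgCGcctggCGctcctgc
Srarp: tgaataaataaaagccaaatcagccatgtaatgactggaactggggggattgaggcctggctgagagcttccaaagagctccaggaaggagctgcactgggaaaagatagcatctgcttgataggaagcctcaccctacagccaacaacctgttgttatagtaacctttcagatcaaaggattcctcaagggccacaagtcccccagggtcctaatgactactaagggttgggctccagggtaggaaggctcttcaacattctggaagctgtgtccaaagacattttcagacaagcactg

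The sites were first placed among all peaks of the Toca1 list. Of its 16412 peaks, 7471 overlapped a donor MEF peak, 2421 lay beside one at less than 5000 bp, and 6520 lay farther away and were new to the donor genome. Of the 6520 new peaks, 5489 (84.2%, Wilson interval 83.3% to 85.1%) were opened only with Toca1, 366 were also control NT peaks, 523 were also C2C12 peaks and 142 were both. When the roles of the 2 NT lists were exchanged, 2502 of 8257 control NT peaks (30.3%) were opened only in control NT. The number was thus 2.19 times higher with Toca1, in a list that was itself longer. When the Toca1 list was reduced to its 8257 widest peaks, as many as the control list held, 1449 sites remained and the ratio was 0.542. The direction was thus turned, by a reduction that also kept only Toca1 peaks of at least 464 bp while the control list was left whole. With peaks of at least 250 bp in every list the ratio was 3.76. This cut also acts unequally, since 69.0% of the sites opened only with Toca1 and 40.8% of those opened only in control NT were at least this wide. The part of the widths in this ratio was not tested.

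The sites were narrower than the peaks that Toca1 oocytes shared with donor cells. Their median width was 323 bp (quartiles 232 and 473 bp, range 150 to 1604 bp), and together they covered 2086 kb. Toca1 peaks on a donor peak had a median width of 660 bp, and new Toca1 peaks also found in control NT had 491.5 bp. Sites opened only in control NT were narrower still, with a median of 234 bp (quartiles 198 and 294 bp). A width of 500 bp or more was reached by 1197 sites (21.8%) opened only with Toca1 and by 50 (2.00%) of those opened only in control NT. A width of 1000 bp or more was reached by 67 (1.22%) and by 0 of 2502. The share of such sites fell at every step when the Toca1 list was ordered by width and divided into 10 groups, from 61.3% among its narrowest peaks (150 to 215 bp) to 5.00% among its widest (967 to 2012 bp). A wider peak covers more bases and so has more room to overlap a peak of another list. The part of sequencing depth in the widths was not tested, since the depth is unknown.

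**Figure D1:**
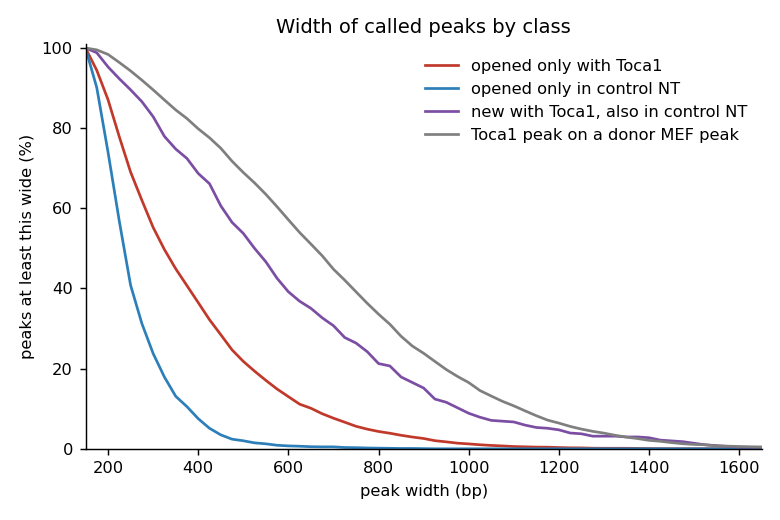
Share of peaks (y axis, percent) at least as wide as the width on the x axis (bp), for sites opened only with Toca1, sites opened only in control NT, new Toca1 peaks also found in control NT, and Toca1 peaks on a donor MEF peak. The curve of sites opened only with Toca1 runs between that of control NT (median 234 bp) and that of peaks on donor peaks (median 660 bp).

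The 10 widest sites were between 1268 and 1604 bp wide. The widest, chr2:155085897-155087500 in mm9 (1604 bp), lay 11449 bp from the nearest donor peak and 14466 bp from the nearest control NT peak, and ranked 48th by width in the Toca1 list. The next were chr13:95652832-95654275 (1444 bp), chr11:95374855-95376271 (1417 bp), chr4:123363633-123365012 (1380 bp) and chr7:148491089-148492463 (1375 bp). The sixth, chr11:52578019-52579391 (1373 bp), spanned the placed TSS of Fstl4, which encodes a secreted follistatin-like protein. The others were chr19:45335701-45337053 (1353 bp), chr2:146909672-146910953 (1282 bp), chr11:117366981-117368248 (1268 bp) and chr5:122871989-122873256 (1268 bp). Of the 10, the sites on chromosomes 13 and 5 overlapped a peak of C2C12 from 1000 cells.

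Distances to the lists used to choose the sites are given as a description, since the choice itself set part of them. From the nearest donor peak the median gap was 19778 bp (quartiles 10790 and 37591 bp), where the choice set the minimum of 5000 bp, and 1204 sites lay within 10 kb of a donor peak. The median distance was 44364 bp to the nearest control NT peak and 15561 bp to the nearest C2C12 peak from 50000 cells, a list with 52697 peaks. At least 5000 bp separated 4563 sites (83.1%) from all 3 of these lists, and 3730 (68.0%) also from the list of 1000 C2C12 cells. Within 500 bp of a control NT peak lay 73 sites (1.33%), and 148 (2.70%) lay within 500 bp of a C2C12 peak from 50000 cells. Peaks that overlapped either list had been left out by the choice, and no such shares of other Toca1 peaks are set beside these.

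At the limit itself, the 3 sites just inside were chr5:114120222-114120774, chr11:96007932-96008081 and chr1:95607982-95608315, at 5000, 5003 and 5004 bp from a donor peak. The 3 Toca1 peaks just outside were chr5:144241660-144242220, chr5:130389940-130391239 and chr11:94415863-94416191, at 4999, 4998 and 4989 bp. The inner 3 were 553, 150 and 334 bp wide and the outer 3 were 561, 1300 and 329 bp wide. At the other end, the sites farthest from donor peaks were chr8:30329509-30330332 (824 bp wide, 1069310 bp away), chr5:133182183-133182466 (284 bp wide, 849949 bp away) and chr11:37049708-37049965 (258 bp wide, 740728 bp away).

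The C2C12 list from 1000 cells was not itself used to choose the sites, but it is not independent of the choice. It overlapped 86 of the 5489 sites (1.57%, interval 1.27% to 1.93%), against 8.18% of all Toca1 peaks. The other 10923 Toca1 peaks were overlapped in 1256 cases (11.5%), and the difference was -9.93 percentage points (Newcombe interval -10.6 to -9.24). Most of those other peaks were open in donor cells, and peaks on a donor peak were overlapped in 15.2% of cases. Both C2C12 lists come from the same cell line, and the choice left out peaks of its 50000-cell list. A low overlap with the 1000-cell list was thus in part built into the choice, and so was the difference of -9.93 points. New Toca1 peaks that did overlap the 50000-cell list, and no control NT peak, were overlapped by the 1000-cell list in 19 of 523 cases (3.63%). Sites opened only with Toca1 minus these peaks gave -2.07 points (-4.06 to -0.721). These peaks had been picked for an overlap with C2C12, so this difference is not a separate result either. Sites opened only in control NT were overlapped in 31 of 2502 cases (1.24%), and sites opened only with Toca1 minus these gave 0.328 points (-0.266 to 0.843), an interval that includes 0. New Toca1 peaks also found in control NT were overlapped in 11 of 366 cases (3.01%), and sites opened only with Toca1 minus these gave -1.44 points (-3.75 to -0.0703). Wider sites were overlapped more often, in 0.883% of cases below 250 bp and in 2.66% from 600 bp upwards, but at these widths peaks on donor peaks were at 7.03% and 18.5%.

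Along the genome the sites were uneven. Chromosome 11 held 668 of them (12.2%), or 5.48 per Mb against 2.08 per Mb over all chromosomes, and the same chromosome held 6.27% of donor peaks and 10.1% of all Toca1 peaks. Chromosomes 19, 17, 5 and 4 followed with 3.11, 3.09, 3.03 and 2.92 sites per Mb. Chromosome 3 was the lowest autosome with 1.07 per Mb. Chromosome X held 48 sites (0.874%), or 0.288 per Mb, and the same chromosome held 2.24% of donor peaks and 1.38% of all Toca1 peaks. Over the 20 chromosomes the density of sites went with that of protein-coding genes (Spearman rank correlation 0.851, a description without a test). Per 100 protein-coding genes, chromosome 11 had 41.5 sites, chromosome 5 had 36.4, chromosome 7 had 15.2 and chromosome X had 4.97, so the chromosomes still differed.

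Sites opened only in control NT were also densest on chromosome 11 (1.94 per Mb against 0.948 over all chromosomes) and held 9.43% of their number there. They too were sparsest on chromosome X, with 0.222 per Mb and 1.48% of their number. Their density had a Spearman rank correlation of 0.746 with that of genes. For each site opened only in control NT there were 1.30 sites opened only with Toca1 on chromosome X, 2.83 on chromosome 11 and 3.13 on chromosome 17. Chromosome lengths were taken as the largest peak end, and gene numbers were those of RefSeq in GRCm38.p6.

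**Figure D2:**
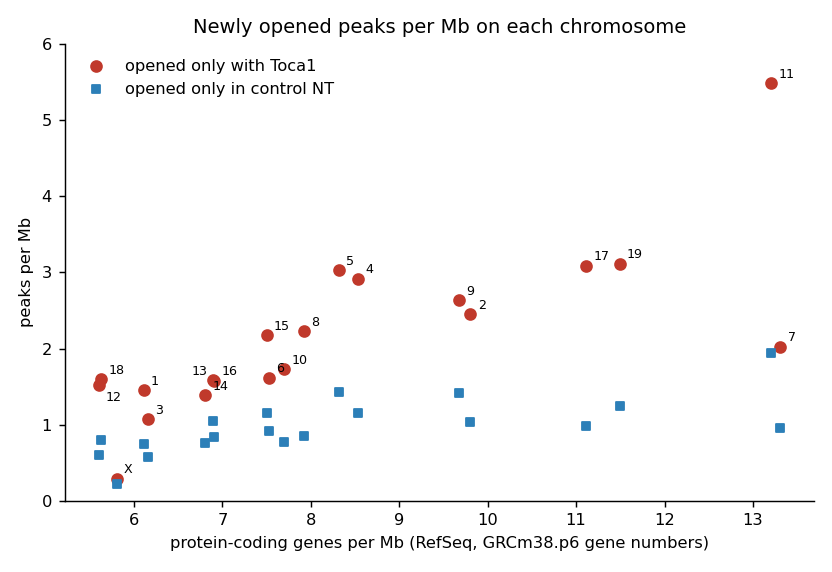
Newly opened sites per Mb (y axis) against protein-coding genes per Mb (x axis) on chromosomes 1 to 19 and X, for sites opened only with Toca1 (circles, labelled with the chromosome) and only in control NT (squares). Chromosome 11 stands highest in both sets, at 5.48 and 1.94 per Mb, and chromosome X lowest in both, at 0.288 and 0.222 per Mb.

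Within chromosomes, the 10-Mb windows with the most sites were 130 to 140 Mb of chromosome 4 (121 sites), 100 to 110 Mb of chromosome 11 (114 sites) and 70 to 80 Mb of chromosome 11 (100 sites). The same windows held 47, 35 and 28 sites opened only in control NT, and 292, 298 and 286 donor peaks. Of the sites opened only with Toca1, 829 (15.1%, interval 14.2% to 16.1%) had another of their kind within 10 kb and 192 (3.50%) within 1 kb. From a site to the nearest other one, the median distance was 53651 bp. For sites opened only in control NT, 114 of 2502 (4.56%) had a neighbour of their kind within 10 kb, in a set with fewer sites to be near.

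The densest 100 kb held 10 sites and ran over chr11:95703412-95802494 in mm9. Their widths were between 245 and 624 bp, and their distances to the nearest donor peak between 5076 and 59683 bp. The same stretch held 0 control NT peaks, 2 donor peaks, 3 C2C12 peaks from 50000 cells and 0 from 1000 cells. The first site of the stretch lay 76 bp from a C2C12 peak, and the other 9 lay at least 4473 bp from any C2C12 peak from 50000 cells. The next densest stretches held 7 sites each and lay on chromosomes 11, 2 and 4. Stretches with 6 sites were cut off without regard to ties, so they are not counted by chromosome.

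**Figure D3:**
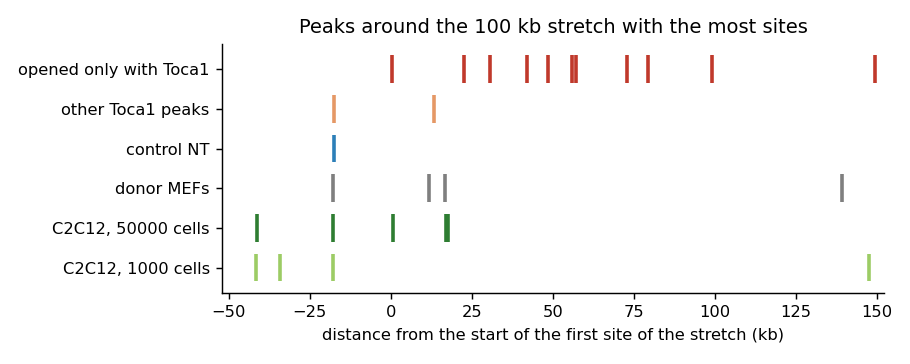
Peaks of each list (rows) around the densest stretch on chromosome 11, by distance from the start of its first site (x axis, kb), with each mark drawn at the position of a peak. The 10 sites opened only with Toca1 are spread over the stretch, while control NT has 0 peaks in it and donor MEFs have 2.

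To relate the sites to genes, TSSs were placed in list coordinates from the gene names and positions that the study lists for its new control NT peaks. This gave 1000 TSSs of 963 genes, which were selected through control NT peaks and not through Toca1 peaks, so shares over them do not stand for all genes. The listed tables were shortened copies, and the sites found at placed TSSs covered the chromosomes unevenly. On chromosomes 5 to 9 only the sites at Cplx1, Plpp4, Vat1l and Slc35f2 were found. These chromosomes held 462, 242, 309, 293 and 327 sites opened only with Toca1, in that order. A site opened only with Toca1 lay within 1 kb of 55 of the 1000 TSSs (5.50%, interval 4.25% to 7.09%) and spanned 30 of them (3.00%). As a check of the placing, points equally far on the other side of the listed peaks had a site within 1 kb in 25 cases and were spanned in 4. Any Toca1 peak spanned 367 of the TSSs and 36 of the points on the other side.

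A donor peak lay within 5 kb of 492 of the 1000 placed TSSs, where the definition of a new site leaves little or no room for one. Among the 508 TSSs at least 5000 bp from any donor peak, a site opened only with Toca1 lay within 1 kb of 55 (10.8%, interval 8.41% to 13.8%). Points on the other side had one in 13 cases (2.56%). These points were not themselves required to lie at least 5000 bp from a donor peak, so the shares are over unlike sets. Shares of these TSSs near a control NT peak were not compared, because the TSSs were placed through such peaks. The 102 listed peaks at distance 0 were also left out. The same limit holds where promoters of genes with control NT peaks are compared below.

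The sites at placed TSSs were wider than the other sites, which include any at TSSs that could not be placed. A wider site also has more room to span a start or to reach within 1 kb of it. The 59 sites within 1 kb of a placed TSS had a median width of 433 bp, the 30 that spanned one had 505 bp, and the other 5430 sites had 321 bp. The share of sites found at a placed TSS was 0.294% below 250 bp, 1.01% from 250 to 400 bp, 1.71% from 400 to 600 bp and 1.96% from 600 bp upwards. Of the 59, 20 lay downstream of the start and 9 upstream. Counted by their centres in bins of 500 bp, 30 sites fell in the first bin into the gene and 19 in the first bin before it, and no other bin within 5 kb held more than 7. Points on the other side of the listed peaks gave 2 to 9 sites per bin.

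**Figure D4:**
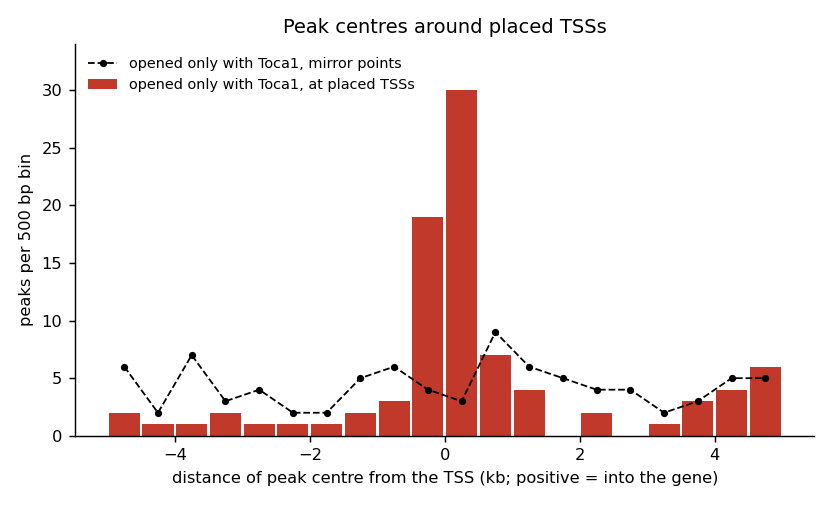
Number of peak centres per 500 bp bin (y axis) by distance from 1000 placed TSSs (x axis, kb, positive into the gene), for sites opened only with Toca1 (bars) and for the same sites around the points on the other side of the listed peaks (dots, mirror points). The bars peak at 19 and 30 in the bins beside the TSS, and the dots stay at 2 to 9.

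The genes with the widest sites at their TSS are given with the site, in mm9, and its distances. At Fstl4 the nearest donor peak was 108037 bp and the nearest control NT peak 52275 bp away. A site of 1219 bp, chr14:24823130-24824348, spanned the TSS of Kcnma1, the pore-forming subunit of the large-conductance calcium-activated potassium channel, with the nearest donor peak 88022 bp away. Abr, which encodes a GTPase-activating protein for Rac, was spanned by chr11:76384238-76385112 (875 bp), at 6334 bp from a donor peak. The 3 sites thus lay between 6334 and 108037 bp from open chromatin of the donor cells.

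Slc16a12, of the monocarboxylate transporter family, was spanned by chr19:34821134-34821987 (854 bp), and Fam163b by chr2:26997394-26998244 (851 bp). Ada, which encodes adenosine deaminase of purine metabolism, was spanned by chr2:163575401-163576221 (821 bp), and its TSS was placed from 2 listed peaks that gave the same point (within 2 bp). Ntrk2, the gene for the BDNF receptor TrkB, was spanned by chr13:58908871-58909682 (812 bp). Its nearest donor peak was 272374 bp away, the nearest control NT peak 152726 bp and the nearest C2C12 peak from 50000 cells 177832 bp, while a C2C12 peak from 1000 cells lay 3524 bp away.

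The TSSs of 2 genes for chromatin proteins were spanned as well. Scmh1, a Polycomb group gene, had chr4:120077770-120078558 (789 bp), and Rbbp5, a core subunit of histone H3 lysine 4 methyltransferase complexes, had chr1:134373492-134374260 (769 bp), which lay 5958 bp from a control NT peak. Sites lay downstream of the start, within 1 kb, at Tmem229b (751 bp wide), at Sulf2 (713 bp), an extracellular sulfatase that edits heparan sulfate, and at Slc2a12 (692 bp), a glucose transporter gene. The last of the 15 widest were again spanning sites, at Pik3ap1 (625 bp), an adaptor of PI3-kinase in B cells, at Dab1 (600 bp), the adaptor of Reelin signalling, and at Cplx1 (596 bp), a regulator of synaptic vesicle fusion.

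Further genes were chosen after their values were seen. Wnt3, a Wnt ligand needed for gastrulation, was spanned by chr11:103635360-103635847 (488 bp), at 5685 bp from a donor peak and 10018 bp from a control NT peak. Glp1r, the receptor of the incretin GLP-1, was spanned by chr17:31038438-31038897 (460 bp), at 9000 bp from a donor peak. Dmc1, the meiotic recombinase, was spanned by chr15:79435413-79435977 (565 bp), at 53074 bp from a donor peak. Srarp was spanned by chr4:140991717-140992174 (458 bp), a site that overlapped a peak of C2C12 from 1000 cells.

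Of the 59 sites at placed TSSs, 8 (13.6%, interval 7.03% to 24.5%) lay within 500 bp of a control NT peak, against 1.33% of all sites, and the TSSs themselves were placed through control NT peaks. At Gprin2 the site (282 bp) lay 59 bp from a control NT peak, at Npr1, the receptor of atrial natriuretic peptide, the spanning site (356 bp) lay 373 bp from one, and at H2-Q10, an MHC class I gene, the distance was 378 bp (522 bp wide). These 3 starts had a called peak beside the site in control NT as well.

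The gene lists of known function were thinly covered by placed TSSs. The list of neural genes had 1 placed TSS of 15 genes, and it had a site. The gene was Pax6, a transcription factor of eye and brain development, with chr2:105514896-105515296 (401 bp) upstream of its start, 307 bp from a control NT peak and 246 bp from a C2C12 peak. Of the other lists, 2 of 20 pluripotency genes, 1 of 20 oocyte and germ line genes, 3 of 30 genes of Toca1 and actin nucleation, 1 of 15 mesenchymal genes and 1 of 19 genes of retinoic acid signalling had a placed TSS, and 0 of these had a site within 1 kb. None of 10 myogenic, 39 Hox and 1117 olfactory receptor genes had a placed TSS, so nothing is known for them here. These numbers are too small to compare the lists.

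Inside genes, the sites could be placed only where control NT peaks listed for a gene lie on both sides of them. This bracketed part of 123 genes, of which 43 held a site and 6 held at least 3, with 68 sites in all. Kalrn, a guanine nucleotide exchange factor of neurons, had 6 sites of 222 to 507 bp, at 6046 to 66244 bp from a donor peak. Skap1, an adaptor of T cell adhesion, had 4 sites of 249 to 473 bp. Asic2 (an acid-sensing ion channel), Maml3 (a coactivator of Notch), Ssh2 (a cofilin phosphatase) and Vps13b had 3 each. How much of a gene lies between its listed peaks differs from gene to gene, so the numbers do not rank the genes. The listed tables were shortened copies here as well.

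The promoters of the genes with a site at the TSS were compared with those of other placed genes, using RefSeq sequence. All 55 genes were found, and the 42 with exactly 1 promoter entry were used. Their median GC content was 66.3% (quartiles 56.8% and 71.8%) and their median number of CG 20.5 in 300 bases. For the 27 spanned by a site the values were 67.0% and 23. In 230 genes with a placed TSS and no Toca1 peak within 5 kb, the medians were 55.7% and 8, and over all RefSeq promoters they were 52.7% and 7. In 41 genes with a site opened only in control NT within 1 kb of the TSS they were 59.0% and 18, and in 325 genes with a donor peak at the TSS 65% and 25. Listed control NT peaks on a start were not used for placing. Sites opened only in control NT thus spanned 6 of the 1000 placed TSSs, and sites opened only with Toca1 spanned 30.

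A promoter was counted as CpG rich where the observed number of CG over that expected from its C and G was at least 0.6. This held for 26 of 42 genes with a site opened only with Toca1 (61.9%, interval 46.8% to 75%), for 74 of 230 without a Toca1 peak (32.2%) and for 282 of 325 with a donor peak (86.8%). The first exceeded the second by 29.7 points (Newcombe interval 13.4 to 44.0) and differed from the third by -24.9 points (-40.3 to -11.1). Against genes with a site opened only in control NT near the TSS (23 of 41, 56.1%; listed peaks on a start were not used for placing) the difference was 5.81 points (-14.8 to 25.8), an interval that includes 0. Intervals here cover counting error over genes, which share 1 peak list for each condition. Kcnma1, Fam163b, Fstl4, Ntrk2 and Ada, printed above, are on the CpG-rich side, Slc16a12 just below the limit with 0.599, and Srarp at 0.

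**Figure D5:**
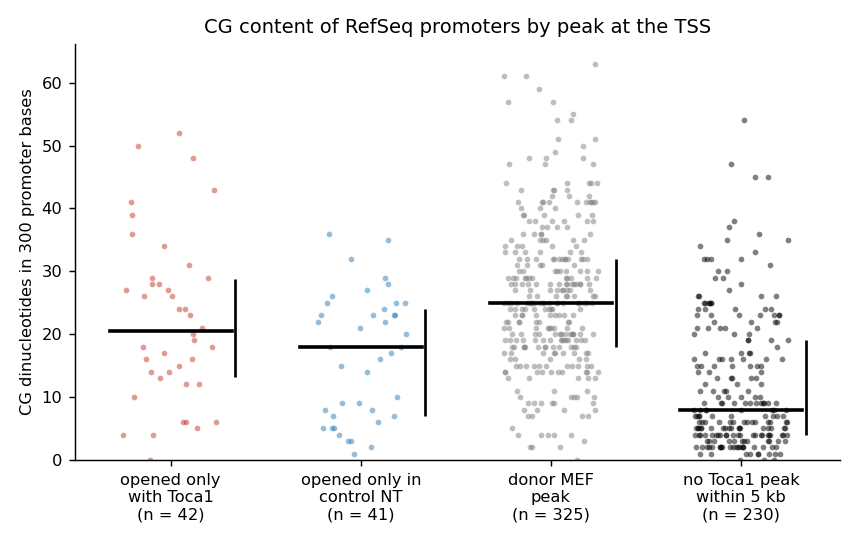
Number of CG dinucleotides in 300 promoter bases (y axis) for genes grouped by the peak at their placed TSS (x axis), with 1 point per gene, horizontal lines at the medians and vertical bars from the lower to the upper quartile. The medians are 20.5 for sites opened only with Toca1, 18 for sites opened only in control NT, 25 for donor peaks and 8 without a Toca1 peak within 5 kb. Listed control NT peaks on a start were not used for placing.

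Short motifs were searched in the same promoters on both strands as exact letters. Median GC content differed between the sets, at 66.3% with a site opened only with Toca1 and 55.7% without a Toca1 peak. With a donor peak it was 65%, with a site opened only in control NT 59.0%, and over all promoters 52.7%. The part of base composition in the motif shares below was not tested. The limit on genes with a site opened only in control NT holds here as well. GGGCGG, the core of the SP/KLF site, was in 27 of 42 promoters of genes with a site (64.3%), in 80 of 230 without a Toca1 peak (34.8%) and in 35.7% of all RefSeq promoters. The excess over the second was 29.5 points (13.1 to 43.5). Genes with a donor peak at the TSS held it in 230 of 325 cases (70.8%, sites opened only with Toca1 minus these -6.48 points, -22.3 to 7.25), and genes with a site opened only in control NT in 19 of 41 (46.3%, difference in the same order 17.9 points, -3.29 to 37.1), and both intervals include 0. This motif holds a CG itself, so it is not separate from the CG content. The promoters of Kcnma1, Ada, Wnt3 and Glp1r held 2 copies each and that of Slc16a12 held 0. CCAAT, the NF-Y core, was in 8 of 42 (19.0%), against 33.0% of genes without a Toca1 peak, 39.4% of those with a donor peak, 39.0% of those with a site opened only in control NT and 37.4% of all promoters. AGGGGGC, a part of the CTCF site, was in 12 of 42 (28.6%), against 9.13%, 21.2%, 4.88% and 10.6% of the same sets. Its interval was 17.2% to 43.6%, and that of genes with a donor peak 17.1% to 26.0%. CACGTG, an E-box, was in 7 of 42 (16.7%), against 7.83%, 9.85%, 14.6% and 7.15%. TGACTCA, the AP-1 site, was in 0 of 42 (interval up to 8.38%), against 5.65%, 3.38%, 4.88% and 5.20%. The GATA motif AGATAA was also in 0 of 42, against 10.0% of genes without a Toca1 peak, 3.69% of those with a donor peak, 4.88% of those with a site opened only in control NT and 11.2% of all promoters. In the same order of sets, CAGCTG, another E-box, was in 7 of 42 (16.7%), against 20.9%, 17.2%, 12.2% and 16.3%. ACAAAG, a SOX motif, was in 7 of 42 (16.7%), against 13.9%, 10.2%, 22.0% and 18.7%. GCATGCG, a part of the NRF1 site, was in 1 of 42 (2.38%), against 3.91%, 8.92%, 4.88% and 3.58%. A match says only that the letters are in the window.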

How the data were processed

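Open chromatin was profiled by ATAC-seq in 8 libraries of 5 conditions. The authors deposited 1 BED list of peak positions per condition, in bp, called at a false discovery rate of 0.01 by the list names. The submitters' processing notes name Bowtie2 2.2.1, Picard, MACS2 2.1 and mm9, without role or order. Whether the libraries of a condition were pooled is not given in the sources used here. No score, signal or read number is listed, so the strength of a peak and the depth of a library are unknown. Lists were assigned to conditions by their names.

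Starts were made 1-based. Peaks of 2 lists counted as shared from an overlap of 1 bp. Shares have 95% Wilson intervals, differences of shares 95% Newcombe intervals, and no p-value over peaks was computed. A TSS was placed from the gene and TSS distance that the study lists for a new control NT peak and the strand in RefSeq (GRCm38.p6): on the 5′ side of a peak inside the gene, and upstream where the distance was below the gene length. Of 104 genes placed from at least 2 peaks, 73 fell on 1 point (within 2 bp). The listed tables are shortened copies, and no overlap test was run on them. The 102 listed peaks at distance 0, 665 without a matched symbol or strand and 702 of unknown side were not used. GC content and motifs of the sites themselves need an mm9 genome and were not analysed here. Promoters were RefSeq sequence (GRCm38.p6).

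The sites, gene lists and tests were chosen with earlier results of these data known. Named were the 10 widest sites, the 3 farthest from donor peaks, the 3 on each side of the limit, the densest 100 kb, the 15 widest at a placed TSS, genes with at least 3 sites between listed peaks, and genes of the lists with a site at the TSS. The placing of TSSs, and all values on promoters, were added after the lists had been seen. Scripts were tested on simulated data. Python 3.11.15, numpy 2.4.6, pandas 2.3.3, scipy 1.17.1 and matplotlib 3.10.9 were used.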

Additional observations from a re-analysis of the deposited data

How the results depend on the processing

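Of 57 alternatives over 9 results, 45 left the value within its interval (counts and ratios within 1.5 times), 11 moved it and 1 reversed its direction. With the Toca1 list reduced to its 8257 widest peaks (at least 464 bp), 1449 sites remained instead of 5489 and the ratio to control NT reversed from 2.19 to 0.542, below 1. This setting changes the length and the widths of the Toca1 list together and leaves the control list as it was, and the cause was not tested. For the number of sites this reduction was added after seeing the data. With peaks of at least 250 bp in every list, the ratio was 3.76, the median width 414 bp, the share overlapped by C2C12 from 1000 cells 1.25% and the share within 10 kb of another site 13.7%. This cut acts unequally on the 2 sets of the ratio, whose widths differ. The overlap with C2C12 from 1000 cells was 3.61% within 500 bp and 0.565% as reciprocal overlap of at least 50%. The share with a neighbour was 16.6% when any peak that missed donor peaks counted, 7.38% within 5 kb and 48.2% within 50 kb. The share of placed TSSs with a site was 3.95% over the 76 TSSs placed from at least 2 listed peaks, an alternative added after seeing the data, with an interval of 1.35% to 11%. The density on chromosome 11, the distance to donor peaks and the GC content of promoters stayed within these limits under each alternative run.

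No paired analysis was possible because each condition has 1 peak list, and for the same reason leaving out a replicate was not run. Alternatives for the GC content and motifs of the sites, and for TSSs over all sites, were not run, since the mm9 genome and annotation were not used here. Without reads, a site that was closed in control NT and one that stayed under the calling threshold cannot be told apart.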
